A study of Mus musculus with 2 samples.

Results

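The genes described here are 46 mitosis and G2/M genes, which encode mitotic cyclins, kinases, kinetochore proteins, spindle motors and condensin subunits. They were chosen by name for their role in cell division, with earlier results of these data known. All 46 were listed in both expression files, among 25810 genes with a symbol. The RNA came from mammary epithelial cells (MECs) of inguinal glands on lactation day 3. There was 1 library from wild type (WT) mice and 1 from *Igfbp7*-/- mice, a germline knockout that lacks the first coding exon of the gene for insulin-like growth factor binding protein 7. The sample labels give C57BL/6 as the genetic background of both groups, whereas the methods say that the knockout was made on CD1. Before RNA extraction, cells carrying CD45, CD31 or Ter119 (leukocytes, endothelial cells and red cells) had been depleted with magnetic beads, although the labels write CD35 for CD31. The number of animals behind each library is not given in the sources used here, and with 1 library per genotype the spread between animals could not be measured. No difference between the genotypes was therefore tested, and every interval below covers counting error only. Fewer dividing cells and less mitotic RNA per cell cannot be told apart in such bulk RNA.

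Cells switch on the mitotic genes late in the cell cycle, from G2 until the chromosomes have separated. Cyclin-dependent kinase 1 with cyclins A and B starts mitosis, condensins fold the chromosomes, kinetochores attach them to the spindle, and the spindle checkpoint holds back the anaphase-promoting complex until all are attached. Resting cells keep most of these genes nearly silent through the DREAM repressor complex, and in dividing cells the B-MYB-MuvB complex and FOXM1 activate them. Much of this control acts through a short promoter element, the cell cycle genes homology region (CHR), often paired with CCAAT boxes, whereas S phase genes mostly carry E2F sites. In the mammary gland, alveolar cells proliferate strongly in pregnancy and much less once lactation is established.

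Both libraries had similar depth, with 34327854 mapped reads behind the WT values and 35016847 behind the *Igfbp7*-/- values, so that 3 reads were worth 0.0874 and 0.0857 RPM, the reads of a gene scaled to the mapped reads of its library. The targeted gene checked the labels: *Igfbp7* RNA was at 0.694% of WT in *Igfbp7*-/- (152 against 1.06 RPM). *Csn2* (β-casein) had the highest RPM in both libraries and took 5.31% of mapped reads in WT and 2.0% in *Igfbp7*-/-. The luminal keratin genes *Krt8* (268 and 789 RPM) and *Krt18* (250 and 1174 RPM) were present in both.

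Promoter sequences of 6 members are shown because the members shared promoter elements that did not enter their choice. They are the 150 bases before the annotated gene start, read from the RefSeq promoter table of mouse build GRCm38.p6 on the strand of the gene, with CHR letters and CCAAT boxes of either strand in capitals. The first 5 belong to genes with much lower RPM in *Igfbp7*-/-, and the sixth to *Mad2l1*, the exception described below. They were picked after the expression values were known.

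Cdc20, chr4:118437344-118437493, minus strand: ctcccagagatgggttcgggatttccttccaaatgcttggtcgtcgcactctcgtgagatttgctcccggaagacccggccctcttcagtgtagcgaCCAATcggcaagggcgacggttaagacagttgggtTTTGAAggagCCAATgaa
Cdk1, chr10:69352913-69353062, minus strand: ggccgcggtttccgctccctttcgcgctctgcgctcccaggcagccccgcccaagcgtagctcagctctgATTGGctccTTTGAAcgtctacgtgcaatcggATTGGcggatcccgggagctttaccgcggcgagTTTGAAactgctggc
Ube2c, chr2:164769779-164769928, plus strand: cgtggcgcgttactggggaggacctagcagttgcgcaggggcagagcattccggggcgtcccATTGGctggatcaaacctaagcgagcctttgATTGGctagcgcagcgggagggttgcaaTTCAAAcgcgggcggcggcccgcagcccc
Top2a, chr11:99024190-99024339, minus strand: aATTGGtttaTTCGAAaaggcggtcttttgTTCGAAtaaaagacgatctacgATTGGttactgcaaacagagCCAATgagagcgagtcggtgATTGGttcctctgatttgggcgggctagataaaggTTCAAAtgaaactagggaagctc
Mki67, chr7:135716380-135716529, minus strand: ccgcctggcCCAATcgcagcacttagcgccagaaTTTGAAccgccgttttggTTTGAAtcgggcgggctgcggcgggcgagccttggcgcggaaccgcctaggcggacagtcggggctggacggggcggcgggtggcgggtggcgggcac
Mad2l1, chr6:66535071-66535220, plus strand: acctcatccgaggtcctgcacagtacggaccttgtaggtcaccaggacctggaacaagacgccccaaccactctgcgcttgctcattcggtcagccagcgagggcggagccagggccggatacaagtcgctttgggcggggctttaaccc

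The RefSeq table held promoters, 250 bases before to 50 bases after the start, for 39 of the 46 members, and none for *Aurkb*, *Incenp*, *Tpx2*, *Foxm1*, *Smc4*, *Ccna2* and *Kif20a*. A CHR, searched as TTTGAA or TTCGAA on either strand, lay in the window of 31 of the 39 (79.5%), against 21.7% of all 27025 genes in the table and 16.4% of those that reached 1 RPM in WT or *Igfbp7*-/-. A CCAAT box (CCAAT on either strand) was found in 79.5% of the members and in 41.1% of all genes, and both elements together in 71.8% of the members and 8.61% of all genes. E2F letters, searched on either strand as TTCCCGC, as the variant TTGGCGC and as the variant TTCGCGC, occurred in 17.9% of the members, 9.20% of all genes and 16.4% of those past 1 RPM. A list of DNA replication and S phase genes showed the reverse order, with a CHR in 25.7% and an E2F match in 62.9% of 35 promoters. Mitotic genes outside the members, a list described below, also often held these elements. Of their 61 promoters, 57.4% held a CHR, 60.7% a CCAAT box, 37.7% both and 31.1% an E2F match. Matches of CHR clustered at the start, where 31 of 45 lay within 50 bases on either side, in 28 of the 39 members. *Ect2* and *Prc1* had overlapping windows, so their matches entered these counts of matches more than once. The window of *Mad2l1* had none of these letters, which says nothing about factors that bind there. The windows of *Birc5*, *Nusap1*, *Nuf2* and *Mybl2* had none either, and these genes were lower in *Igfbp7*-/-. Those of *Anln* and *Kif23*, which were counted in neither direction, held a CHR. Such letter matches are a description of the windows and were not tested as binding sites.

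**Figure D1:**
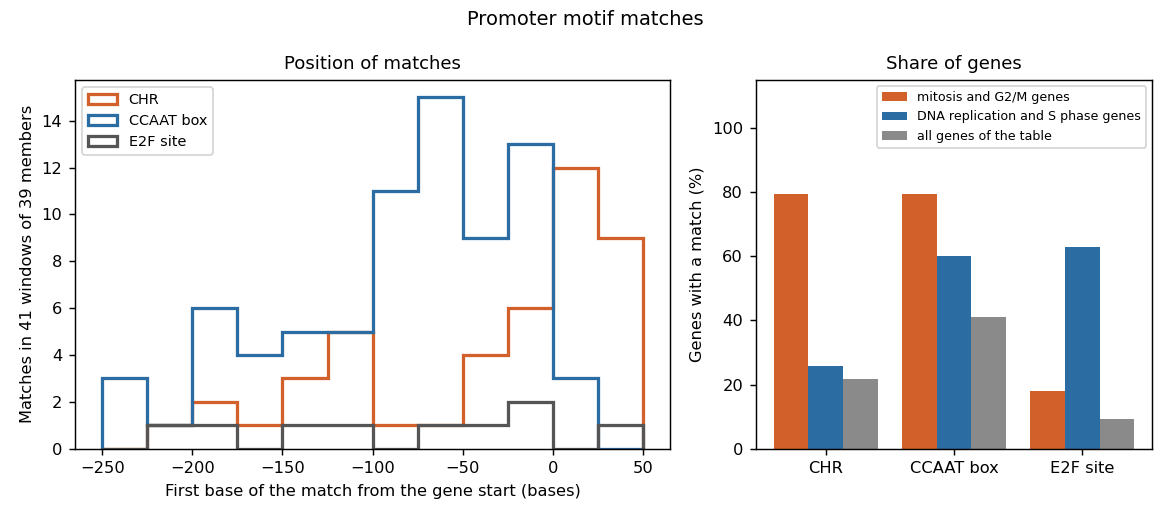
Matches of 3 promoter motifs by their distance from the annotated gene start in 41 windows of 39 mitosis and G2/M genes (left, number of matches per 25 bases), and the share of genes with at least one match (right, percent). CHR and CCAAT matches each occur in 79.5% of these genes, and CHR matches gather near the start.

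Mitotic transcripts were scarcer in the *Igfbp7*-/- library for nearly every gene. The 46 members summed to 357 RPM in WT (12263 reads) and to 87.5 RPM in *Igfbp7*-/- (3063 reads), or 24.5% of the WT level (95% interval 23.1 to 25.9%). The RPM of all genes summed to 87.8% of WT. Of the 46 members, 45 had a lower RPM in *Igfbp7*-/-, 42 were under 50% of WT, 29 under 25% and 11 under 10%. Of all 25810 genes, of which 19160 had reads in WT, 10218 had a lower RPM in *Igfbp7*-/-. At a ratio of 2 with 0.1 RPM added, 13.8% of the genes that reached 1 RPM in either library were lower. For 41 members the counting interval lay wholly below the WT level and for 1 wholly above it. These interval counts, and those under 25% and 10% of WT, were made for the members only. No share of all genes stands beside them, so they cannot be set against a background. The interval of the other 4 (*Anln*, *Kif23*, *Kif2c* and *Ttk*) included the WT level. The median number of reads per member was 152 in WT and 27.5 in *Igfbp7*-/-.

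A log2 ratio of *Igfbp7*-/- to WT was computed for each gene after adding 0.1 RPM to both values. Genes that reached 1 RPM in either library, 14026 in all, passed the minimum, and those whose ratio was 1.5 or more in one direction were called lower or higher. Under this rule 39 of the 42 members past the minimum were lower, whereas 23.0% of all genes were. One member was higher, beside 21.4% of all genes, and 2 were in between. Other scalings changed that split of all genes. It became 18.6% lower and 30.6% higher when scaled to the reads on listed genes, and 28.1% lower and 16.6% higher without the 20 genes of highest RPM, with 41 and 43 of 45 members lower. The median log2 ratio of the 42 members was -2.33, and that of all genes was 0.03 with quartiles of -0.52 and 0.51. Many members passed the minimum only through WT: 24 of the 42 were below 1 RPM in *Igfbp7*-/-, so that their *Igfbp7*-/- value was below that of WT by construction. Among the 18 with at least 1 RPM in both libraries, 15 were lower (20.1% of all such genes) and the median was -1.46. Most members were weakly expressed, and of the 36 whose higher value lay between 1 and 10 RPM, 33 were lower, against 26.8% of all genes in that range. Without *Mki67* and *Smc4*, the source of 37.1% of the members' reads in WT, the summed level was 25.5% of WT.

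**Figure D2:**
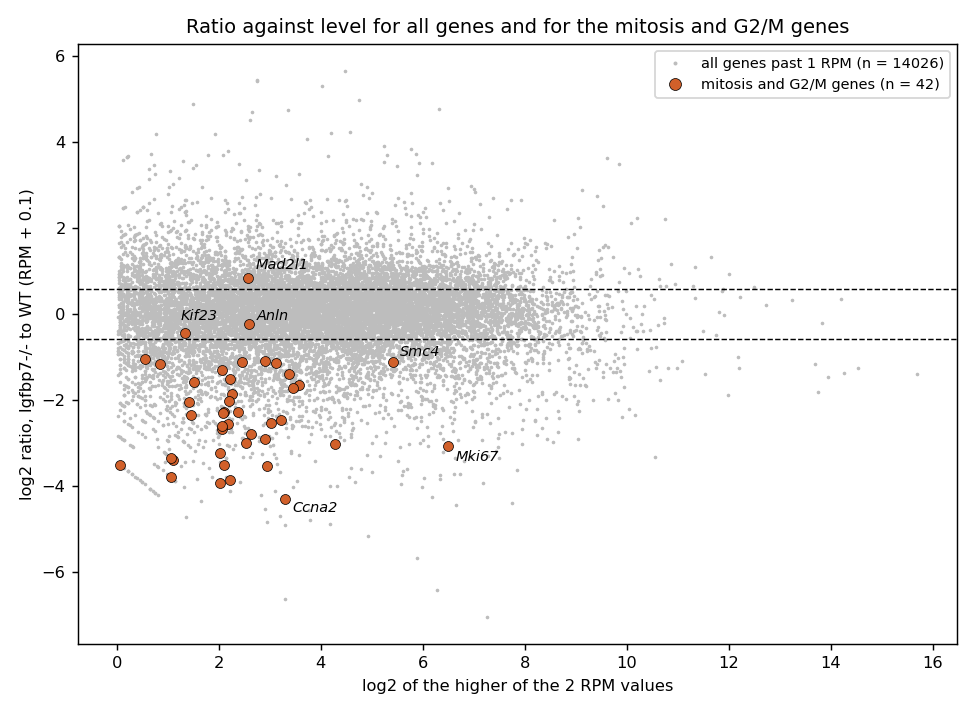
Log2 ratio of *Igfbp7*-/- to WT (vertical axis, RPM + 0.1) against the log2 of the higher RPM (horizontal axis) for 14026 genes (grey) and 42 mitosis and G2/M genes (orange), with 1 library per genotype and dashed lines at a ratio of 1.5 in either direction. Of the members, 39 lie below the lower line, *Anln* and *Kif23* between the lines and *Mad2l1* above the upper one.

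The 2 transcription factors among the members were both lower. *Foxm1*, the forkhead factor that activates G2/M genes, had 10.98 RPM in WT and 3.26 RPM in *Igfbp7*-/-, 29.6% of WT (95% interval 21.6 to 40.1%). Its exons overlap those of 4933413G19Rik on the same strand in NCBIM37 (6.29 and 1.48 RPM), so reads of the pair may be shared. *Mybl2*, which encodes B-MYB, had 4.17 and 1.63 RPM, 39.1% of WT (24.4 to 61.1%). Their log2 ratios of -1.72 and -1.30 were above the median of -2.33 of the 42 members past the minimum. Both genes had at least 1 RPM in both libraries. Among the 18 such members the median was -1.46, with *Foxm1* below it and *Mybl2* above it.

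Cyclins and mitotic kinases showed some of the lowest remaining levels. *Ccna2* (cyclin A2, which acts in S phase and at mitotic entry) had 338 reads in WT and 14 in *Igfbp7*-/-, 9.85 against 0.400 RPM or 4.06% of WT (95% interval 1.61 to 8.55%). Its log2 ratio was -4.31. The kinase gene *Cdk1* had 4.28 and 0.286 RPM, 6.67% of WT (2.10 to 16.3%). Both B-type cyclins were lower. *Ccnb1* had 33 reads in WT and none in *Igfbp7*-/-, with an upper 95% limit of 24.6% of WT, while *Ccnb2* kept 18.3% of WT (9.40 to 32.9%). *Ccnb1* stayed below 1 RPM in both libraries, so cyclin B RNA was mostly that of *Ccnb2*, with 2.74 RPKM (RPM per kilobase of gene length) in WT against 0.415 RPKM for *Ccnb1*. *Cdca3*, a trigger of mitotic entry that helps destroy WEE1, was left with 2 reads of 72 in WT, a level of 2.72% of WT (0.0671 to 16.2%).

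The centrosome and spindle kinases were less uniform. *Nek2*, which acts in centrosome separation, had 9.26 RPM in WT against 1.60 RPM in *Igfbp7*-/-, and *Aurka*, which encodes the centrosomal Aurora A kinase, had 4.81 and 1.26 RPM. *Plk1*, the polo-like kinase needed at many steps of mitosis, had 1.46 and 0.657 RPM and thus kept 45.1% of WT, with a wide interval of 20.3 to 94.0% on 50 and 23 reads. Of the 8 genes of mitotic entry, all were lower in *Igfbp7*-/-, 7 of them past the minimum, and their summed level was 13.6% of WT (10.8 to 17.0%), the lowest of the 9 role groups, although its interval overlapped that of the kinetochore genes (14.3% of WT, 10.5 to 19.1%).

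Genes of chromosome structure held the most abundant members. *Mki67*, which encodes the proliferation marker Ki-67 that coats mitotic chromosomes, had 90.1 RPM in WT (3092 reads) and 10.6 RPM in *Igfbp7*-/- (371 reads), or 11.8% of WT, a decrease of 7.30 to 9.95-fold by its 95% interval. *Top2a*, which encodes the topoisomerase that untangles sister DNA, stood at a near-equal share of 11.9% (8.36 to 16.5%), with 19.5 and 2.31 RPM. The condensin subunits were lower by much less. *Smc4* had 42.5 and 19.5 RPM (45.9% of WT, 40.2 to 52.2%), *Ncapd2* 7.49 and 3.46 RPM (46.2%), *Ncapg* 4.66 and 1.57 RPM (33.7%) and *Smc2* 11.9 and 3.71 RPM (31.2%). The intervals of *Smc4* and *Mki67* did not overlap, so within this group the 2 differed by more than counting error. *Smc4* was the member with the highest level per length in both libraries, 10.4 RPKM in WT and 4.75 RPKM in *Igfbp7*-/-, and stood far above *Smc2*, the other SMC subunit of the same complex (2.23 and 0.696 RPKM).

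All 6 centromere and kinetochore genes were lower, and none reached 1 RPM in *Igfbp7*-/-. *Cenpe*, which encodes a kinetochore motor, had 7.66 RPM in WT and 0.571 RPM in *Igfbp7*-/-, 7.45% of WT (95% interval 3.49 to 14.1%). *Cenpf*, a large kinetochore and matrix protein gene, kept 15.1% (4.54 and 0.685 RPM). *Cenpa*, the gene for the centromeric histone H3 variant, kept the most of the group, with 2.85 and 0.885 RPM or 31.0% of WT (16.3 to 55.8%). The microtubule-binding NDC80 complex was represented by *Spc25* (4.31 and 0.800 RPM), *Nuf2* and *Ndc80*. *Nuf2* had 36 reads in WT and none in *Igfbp7*-/-, with an upper 95% limit of 22.3% of WT, and *Ndc80* had 32 and 4 reads. Per length, *Spc25* exceeded its partners *Nuf2* and *Ndc80* in WT (3.71 RPKM against 0.436 and 0.424 RPKM), although the proteins form 1 complex.

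The chromosomal passenger complex, which corrects wrong attachments and guides cytokinesis, was lower in all 4 subunits but to unequal degrees. Its kinase gene *Aurkb* had 72 reads in WT and 4 in *Igfbp7*-/-, 5.45% of WT (95% interval 0.635 to 21.2%). *Birc5* (survivin) had 4.603 and 1.06 RPM and *Cdca8* (borealin) 2.68 and 0.571 RPM, which were 23.0% and 21.3% of WT. The scaffold gene *Incenp* kept 44.8% (33.1 to 60.0%), with 8.74 and 3.91 RPM. Thus the interval of the scaffold lay above that of the kinase.

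Control of the checkpoint and of anaphase gave the widest range. *Cdc20*, the activator of the anaphase-promoting complex, had 4.08 RPM in WT and 0.171 RPM in *Igfbp7*-/-, 4.20% of WT (95% interval 0.846 to 12.8%), and *Ube2c*, the ubiquitin-conjugating enzyme of that complex, had 4.05 and 0.343 RPM (8.46%, 3.00 to 19.4%). The checkpoint kinase genes *Bub1* (2.16 and 0.114 RPM) and *Bub1b* (4.17 and 0.571 RPM) were at 5.30% and 13.7% of WT. *Espl1*, which encodes separase, the protease that cuts cohesin, kept 41.1% (1.81 and 0.742 RPM). *Ttk*, the kinase that starts checkpoint signalling, was below 1 RPM in both libraries, with 32 and 20 reads and an interval of 24.9 to 144% of WT.

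*Mad2l1*, which encodes the checkpoint protein MAD2 that binds and blocks CDC20, was the single member with more RNA in *Igfbp7*-/-. It had 3.29 RPM in WT (113 reads) and 5.94 RPM in *Igfbp7*-/- (208 reads), 180% of WT (95% interval 129 to 254%), the only member interval wholly above the WT level. Its rank by level per length among the 46 members moved from 17 in WT to 2 in *Igfbp7*-/- (1.91 and 3.44 RPKM), while that of *Ccna2* moved from 6 to 33. No other gene of the annotation overlaps its exons at chr6:66485384-66491027 in NCBIM37. Reads shared with copies elsewhere could not be judged, since the handling of multiply mapping reads is not given in the sources used here.

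Most kinesin motors of the spindle were lower. *Kif4*, a chromosome-bound kinesin, had 4.66 RPM in WT and 0.228 RPM in *Igfbp7*-/-, 4.90% of WT (95% interval 1.30 to 13.0%). *Kif11*, which pushes the spindle poles apart, had 6.18 and 0.800 RPM (12.9%), and *Kif22*, a motor that moves chromosome arms outward, had 2.74 and 0.457 RPM (16.7%). Other motors kept a larger share. *Kif20a*, which acts at the midzone in cytokinesis, had 5.48 and 2.46 RPM (44.8%, 30.5 to 65.0%) and *Kif23*, the motor of centralspindlin, 2.53 and 1.83 RPM (72.1%, 44.2 to 116%). *Kif2c*, a microtubule depolymerase gene, had the fewest reads of the members in WT, with 14, and 2 in *Igfbp7*-/-.

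Genes for proteins on spindle microtubules were lower in all 4 cases. *Hmmr*, which encodes a hyaluronan receptor that binds the spindle, had 5.77 and 0.628 RPM (10.9% of WT), *Tpx2*, the activator of Aurora A on the spindle, 7.49 and 0.914 RPM (12.2%), and *Nusap1*, which crosslinks microtubules, 5.21 and 1.0 RPM (19.2%). *Prc1*, which bundles the midzone, kept 37.3% (95% interval 27.7 to 49.6%), with 10.3 and 3.86 RPM. Its interval lay above those of *Hmmr* and *Tpx2*.

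In the cytokinesis group, *Anln* stood apart from *Ect2* and *Racgap1*. *Anln* encodes anillin, an actin-binding scaffold of the contractile ring, and had 6.06 RPM in WT and 5.14 RPM in *Igfbp7*-/-, 84.8% of WT (95% interval 63.3 to 114%). *Ect2*, which activates RHOA at the division site, had 4.17 and 0.600 RPM (14.4%, 6.75 to 27.7%), and its partner *Racgap1* had 8.10 and 1.31 RPM (16.2%, 9.95 to 25.3%). *Racgap1* and *Kif23* encode the 2 subunits of centralspindlin, yet their intervals did not overlap.

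**Figure D3:**
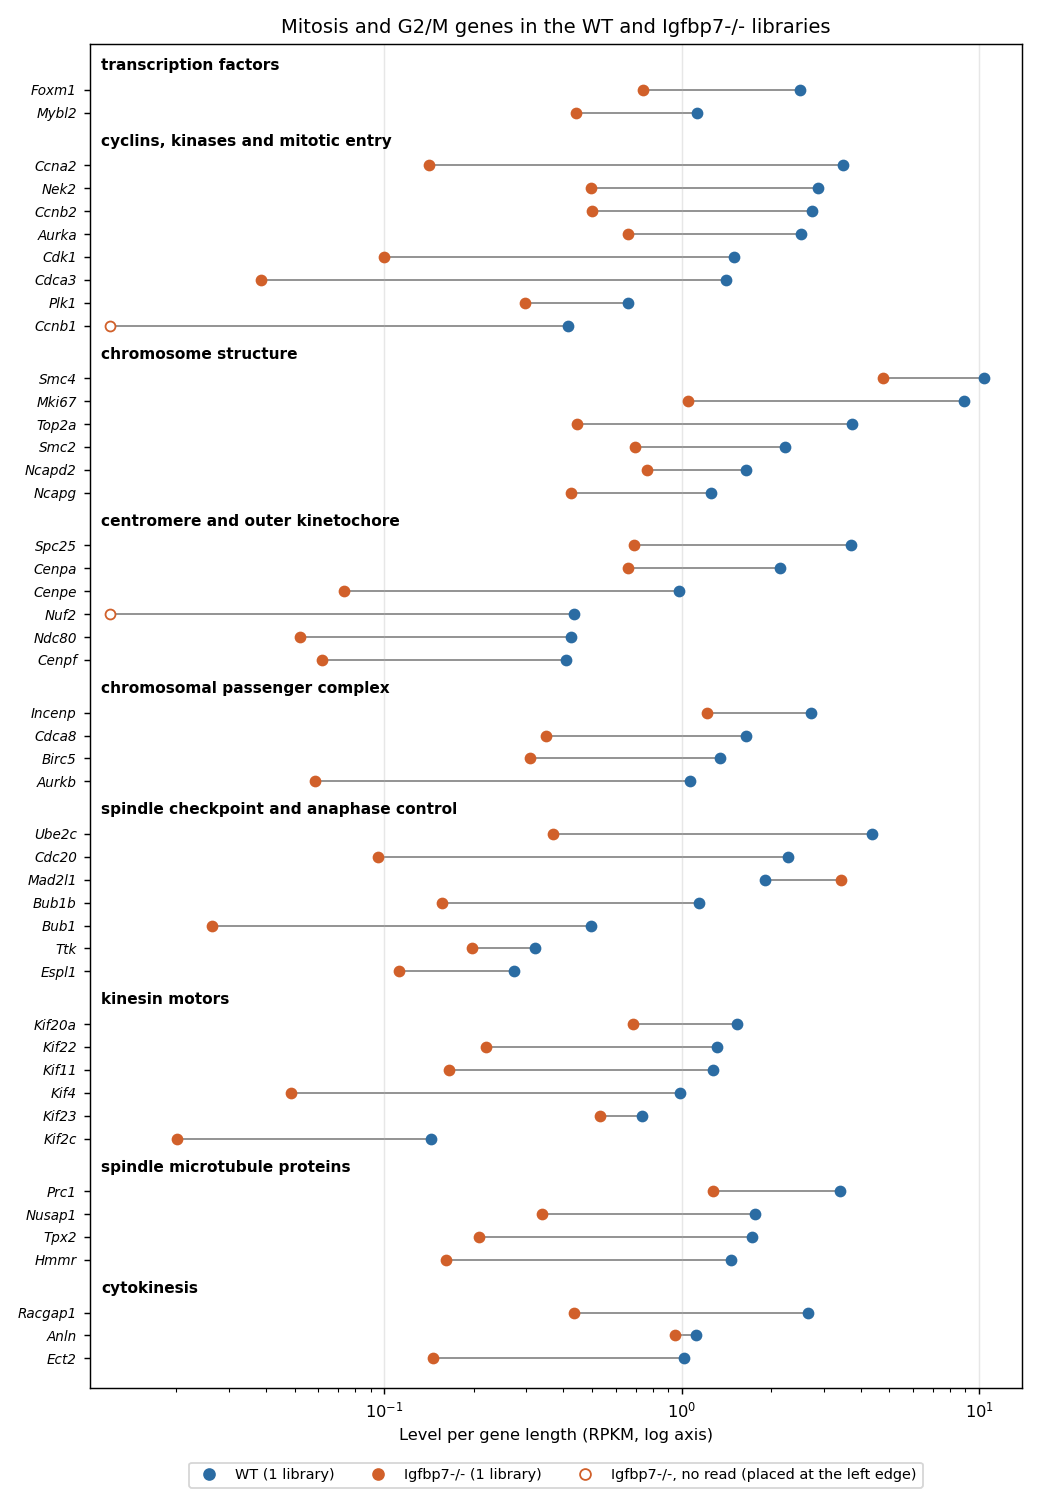
Level per gene length (RPKM, log axis) of the 46 mitosis and G2/M genes in the WT library (blue) and the *Igfbp7*-/- library (orange), grouped by role, with 1 library per genotype and open circles for genes without a read in *Igfbp7*-/-. The orange point is left of the blue one for 45 genes, and right of it for *Mad2l1*, which had 1.91 RPKM in WT and 3.44 RPKM in *Igfbp7*-/-.

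Exons of 10 members overlap those of another gene in the NCBIM37 annotation, and whether the counting used strand is not given in the sources used here. Among them, *Cdc20* overlaps *Elovl1* on the opposite strand (73.9 RPM in WT and 41.4 RPM in *Igfbp7*-/-), *Ccna2* overlaps *Exosc9* (6.15 and 4.31 RPM) and *Kif4* overlaps *Pdzd11* (5.10 and 4.80 RPM). *Kif20a* overlaps *Cdc23* (9.35 and 9.22 RPM) and *Ncapg* overlaps *Lcorl* (6.32 and 9.02 RPM), both on the opposite strand. Each of these 5 neighbours had a higher RPM in *Igfbp7*-/- than the member it overlaps, and their part in the members' values was not tested. *Nusap1*, *Ube2c*, *Cdca8*, *Top2a* and *Foxm1* are the others. Of the 32 members past the minimum without such an overlap, 29 were lower.

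Other genes of cell division were then compared, from lists drawn up by role, also with earlier results of these data known. Of 74 further mitotic genes in the files, 65 passed the minimum, of which 44 (67.7%, against 23.0% of all genes) were lower and 2 higher, with a median log2 ratio of -1.35. *Ska1* (1.31 RPM in WT, no read in *Igfbp7*-/-), a kinetochore gene, and *Iqgap3* (3.64 and 0.171 RPM) were at its low end. *Wee1*, whose kinase restrains CDK1, was at its high end with 82.3 and 232 RPM, followed by the centromere gene *Cenpt* with 5.42 and 8.25 RPM. As with the members, 33 of the 65 were past the minimum only in WT. Among the 31 past it in both, 13 were lower, beside 20.1% of all such genes, and the median was -0.20. Its most abundant gene, *Tuba1c* (449 and 241 RPM), encodes a tubulin that resting cells use as well.

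DNA replication and S phase genes were lower less uniformly than the mitotic members. Of 42 past the minimum, 28 (66.7%, against 23.0% of all genes) were lower and 1 higher, the median log2 ratio was -1.08, and the summed level was 58.4% of WT (95% interval 55.8 to 61.1%), above the 24.5% of the mitotic genes. Of these, 9 passed the minimum only in WT, and among the 33 past it in both libraries 19 were lower, with a median of -0.69. *Uhrf1* (8.24 and 1.03 RPM), a cofactor of maintenance DNA methylation, had the lowest ratio. *Dnmt1*, the maintenance methyltransferase and the most abundant of the list, had 28.3 and 38.01 RPM, and the thymidine kinase gene *Tk1* (1.43 and 3.23 RPM) and the kinase gene *Cdc7* (5.48 and 7.42 RPM), which acts at replication origins, had the highest ratios.

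A list of 20 E2F, RB and DREAM genes did not hold *Foxm1* and *Mybl2*, the 2 members described above, which were both lower. In this list 13 genes were counted in neither direction, as were 7789 of the 14026 genes past the minimum. Of the 20, 4 were lower and 3 higher, beside 23.0% and 21.4% of all genes, with a median log2 ratio of -0.16. The most abundant, *Rbbp4*, a histone chaperone gene, had 77.3 and 74.1 RPM. The lower ones were *E2f8* (8.48 and 0.800 RPM), *Rbl1*, which encodes the pocket protein p107 (7.43 and 1.37 RPM), *E2f1* (4.54 and 1.29 RPM) and *E2f2* (1.28 and 0.742 RPM). The higher ones were *Rb1*, the retinoblastoma gene (22.1 and 51.3 RPM), *Lin52* (3.12 and 5.31 RPM) and *Myb* (1.11 and 2.97 RPM). Subunits and regulators of the anaphase-promoting complex and of cohesin, which resting cells also express, had 0 of 22 lower, beside 23.0% of all genes. The 5 higher were 22.7%, near the 21.4% of all genes, and the median was 0.15. In this list *Anapc13* (1.14 and 2.97 RPM) and *Anapc4* (9.55 and 17.7 RPM) had the highest ratios. *Anapc5* (66.3 and 53.9 RPM) and *Anapc7* (27.5 and 23.2 RPM) had the lowest, and the cohesin loader gene *Nipbl* was the most abundant (106 and 150 RPM). The activator *Cdc20* was therefore far below WT in *Igfbp7*-/- while no subunit of the complex it activates was counted as lower.

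A list of D and G cyclins, CDK inhibitors and other antiproliferative genes had 3 of 14 lower (21.4%, near the 23.0% of all genes) and 1 higher, with a median log2 ratio of -0.28. The inhibitor genes *Cdkn2c* (2.24 and 0.457 RPM) and *Cdkn1c* (10.9 and 4.54 RPM) and the cyclin gene *Ccnd2* (64.4 and 31.5 RPM) were lower, and *Btg2*, an antiproliferative gene, was higher (191 and 380 RPM). *Cdkn2b*, another inhibitor gene, had 1.46 and 2.17 RPM. *Btg1*, the most abundant of the list, had 354 and 316 RPM and *Cdkn1a*, which encodes p21, 279 and 256 RPM.

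**Figure D4:**
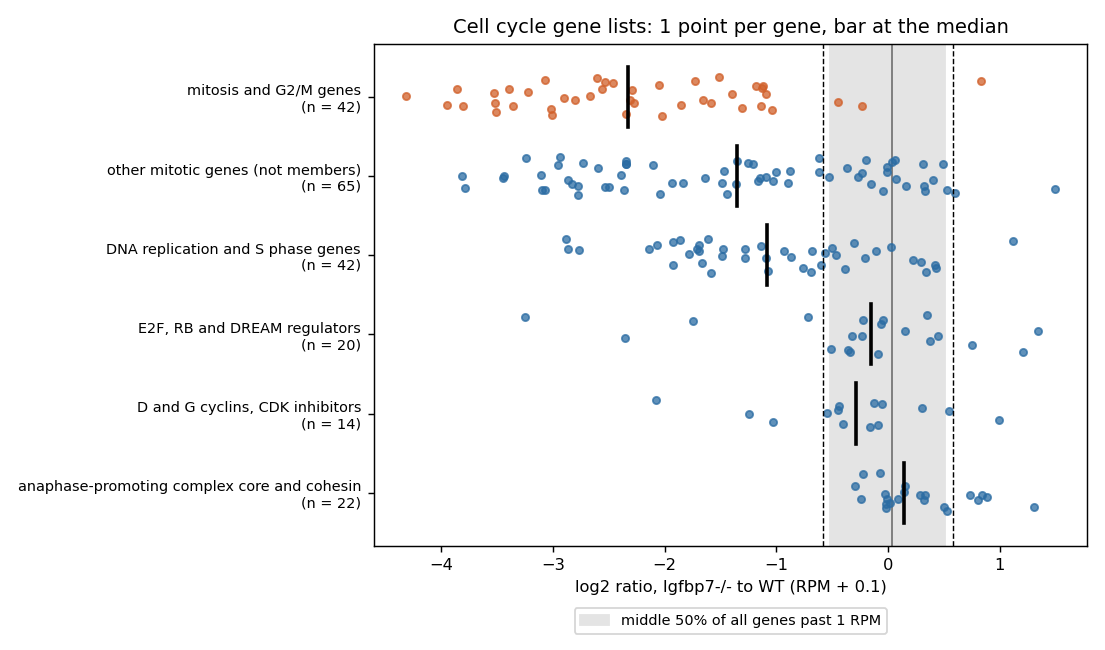
Log2 ratio of *Igfbp7*-/- to WT (RPM + 0.1) for each gene past the minimum in 6 cell cycle lists, with black bars at the medians, grey shading for the middle 50% of all genes and dashed lines at a ratio of 1.5. The median of the mitosis and G2/M genes is -2.33, those of the other mitotic and the S phase genes are -1.35 and -1.08, and the other 3 lists centre near 0.

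Marker genes of several cell types also differed between the 2 libraries, and their part in the mitotic values was not tested. Leukocyte markers summed to 1014 RPM in WT against 267 RPM in *Igfbp7*-/- (26.4% of WT), with 14 of 17 lower and none higher. They included *Ptprc*, which encodes the depleted antigen CD45 (43.5 and 18.1 RPM), and *Cd74* (527 and 69.7 RPM), the largest part of the sum. The 3 not counted as lower were *Lcp1* (97.5 and 101 RPM), *Itgam* (4.78 and 6.28 RPM) and *Cd3g* (1.51 and 1.14 RPM). Endothelial markers stood at 31.8% of WT, with 7 of 8 lower, among them *Pecam1*, the gene of CD31 (323 and 88.9 RPM). Basal and myoepithelial markers were at 31.8% (8 of 9 lower), with *Acta2* at 1052 and 227 RPM. Secretory alveolar markers were at 37.9% (8 of 9 lower), adipocyte markers at 34.2% (3 of 4 lower and 1 higher) and fibroblast markers at 54.3% (4 of 8 lower and 1 higher). Beside these counts and those of the marker lists below, 23.0% of all genes past the minimum were lower and 21.4% higher.

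Other marker lists did not follow the mitotic genes. General luminal markers summed to 244% of WT, with 5 of 7 higher and none lower. Hormone-sensing luminal markers summed to 112% of WT, a sum made up mostly of *Ly6a* (108 and 106 RPM), whereas *Esr1* (245% of WT), *Foxa1* (483%) and *Pgr* (600%) were all higher. *Pgr* reached 1 RPM only in *Igfbp7*-/- (0.932 and 5.60 RPM), and *Cited1* stayed below it in both libraries (0.641 and 0.714 RPM). Erythroid markers were at 117%, with none of 4 counted in either direction. No defining marker of leukocytes, endothelial or basal cells was at 0 in either library.

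**Figure D5:**
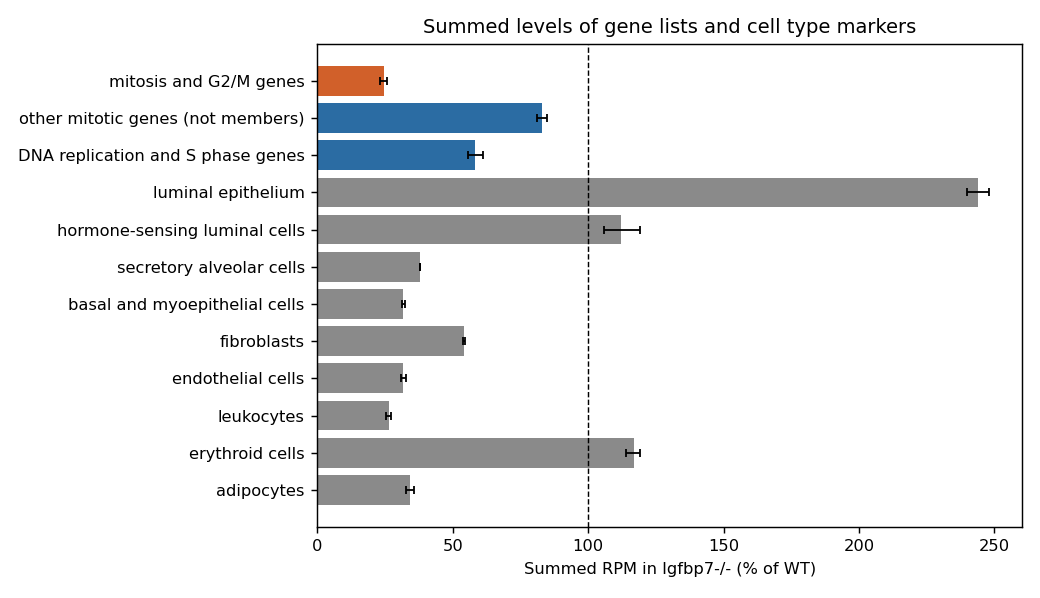
Summed RPM in the *Igfbp7*-/- library as percent of the WT library for the mitosis and G2/M genes (orange), 2 other cell cycle lists (blue) and cell type markers (grey), with 95% counting intervals and a dashed line at 100%. The mitotic genes stand at 24.5% and luminal markers at 244%. Leukocyte markers stand at 26.4%, a sum that is mostly *Cd74* in WT.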

How the data were processed

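Poly(A) RNA of lineage-depleted MECs was sequenced as paired ends on a SOLiD sequencer. The authors removed reads of ribosomal, small nuclear and mitochondrial RNA, although ribosomal RNA genes still held 2.95% and 3.15% of mapped reads, and mapped the rest with a Bowtie pipeline in GeneSifter, and the submitters' processing notes name Bowtie 0.12.3, SAMtools 0.1.15 and the mouse build mm9, whereas the methods name a human build. The authors deposited, per gene, a read count without normalization, the count scaled to mapped reads (RPM) and the RPM per kilobase of a gene length they chose (RPKM). A blank count was read as 0, and 50 rows without a symbol, with 0.0408% and 0.0484% of mapped reads, were left out. Ratios used RPM with a pseudocount of 0.1, a minimum of 1 RPM in one library and a threshold of 1.5, that of the study. Intervals are 95% Clopper-Pearson intervals on read pairs (counts divided by 2, since 75.8% and 74.1% of counts from 1 to 20 were even) and leave out the pseudocount. Replicate tests could not be run with 1 library per group. The members and lists were chosen with earlier results of these data known. Values are printed for all members past the minimum and, in other lists, for the 2 highest and 2 lowest log2 ratios and the most abundant gene, with some added after their values were seen and 1 gene not reported here. Of the cell type markers, only some are named. Gene positions came from GENCODE vM1 on NCBIM37 (mm9). Scripts, tested on simulated data, used Python 3.11.15, numpy 2.4.6, pandas 2.3.3, scipy 1.17.1 and R 4.3.3. Alternatives included TMM factors of edgeR 4.0.16 and size factors of DESeq2 1.42.0 on the counts, other pseudocounts, minimums and scalings, and a threshold of 2. The alternatives without ribosomal and small nuclear RNA and without members that overlap other genes, were added after seeing the data.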

Additional observations from a re-analysis of the deposited data

How the results depend on the processing

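The median log2 ratio of the members ranged from -2.48 to -1.46 over the alternatives and was negative in all of them. It moved to -1.50 with a pseudocount of 1 RPM, which pulls weak genes towards a ratio of 1, to -1.69 when 10 RPM in either library were required and to -1.46 with a minimum of 1 RPM in both. Those minimums kept 6 and 18 members, of which 6 and 15 were lower. *Mad2l1* was the 1 higher member except that the count was 0 with a threshold of 2, with an interval wholly past 1.5 and with the minimum of 10 RPM, which it did not reach. Apart from these minimums and from the removal of overlapping members given below, the number of lower members was between 37 and 43, with 37 for an interval wholly past 1.5. That interval rule was applied to the members only, so it has no share of all genes beside it. Scaling to the reads on listed genes raised the median ratio of all genes from 0.03 to 0.22, and the members' median was then -2.23. In the alternatives added after seeing the data, 41 of 45 members were lower without ribosomal and small nuclear RNA, and 29 of 32 without members whose exons overlap another annotated gene. No single member changed sign, but the log2 ratios of 22 of 46 members moved with a pseudocount of 1 RPM (*Ccna2* from -4.31 to -2.95) and 4 with RPKM, and with 0.01 RPM *Nuf2*, *Ccnb1* and *Cdca3* lay below *Ccna2*. No paired analysis was possible because each genotype had 1 library, and for the same reason no replicate could be left out. In *Igfbp7*-/-, 13 members rested on under 20 reads, so their ratios are known only within wide counting intervals.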

Other observations

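Outside the mitotic members, a CHR in the promoter went with little difference in ratio. Among other genes that reached 1 RPM in either library, the 1489 with a CHR match had a median log2 ratio of 0.01 and 25.2% were lower in *Igfbp7*-/-, while the 7741 without one had a median of 0.07 and 21.0% were lower. Of the members past the minimum, the 28 with a CHR match had a median of -2.44 and the 7 without one a median of -2.27. Of all 42 members past the minimum, 24 reached 1 RPM only in WT, so their ratios were negative by construction. For the CCAAT box the medians were -2.54 in the 29 members with it and -1.66 in the 6 without it. For E2F letters they were -2.81 in the 6 with a match and -2.31 in the 29 without one. These differences were not tested.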
